A study of Homo sapiens with 6 samples.

Results

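The genes followed here code for feedback brakes on the mitogen-activated protein kinases (MAPK) and are DUSP1, DUSP4, DUSP5, DUSP6, DUSP8, DUSP10, DUSP14, SPRY2, SPRY4 and SPRED2. They are 10 of the 38100 genes in the deposited tables. The set was chosen by the difference in DUSP5 counts between the groups of this study, together with 9 other brakes from the DUSP, Sprouty and SPRED families, so the group differences of these genes are given as a description. How many of them the fits over all genes called is counted once, and nothing is read from that count. All 10 passed the filter on low counts that left 17720 genes for the fit.

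The samples were HK2, a human cell line from the epithelium of the proximal kidney tubule that is established in culture, labelled wild type. In the AdCtrl group the cells carried a control adenovirus, and in the AdSirt4 group they carried an adenovirus for overexpression of SIRT4, a sirtuin mostly known from mitochondria. All cells of both groups were stimulated with TGF-β1, so no unstimulated group enters any comparison, and the dose and time are not given in the sources used here. Poly-A RNA was sequenced in 3 samples per group, and the comparison asks which genes differ when SIRT4 is overexpressed under TGF-β1. The study describes its replicates in vitro as technical, so the SDs and SEs may not describe the spread between independent cultures. The cell line field of the labels carries a running number, while all titles name HK2.

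MAP kinases pass growth factor and stress signals from the cell surface to the nucleus through a chain of kinases that ends in ERK, JNK or p38. Dual-specificity phosphatases (DUSPs) switch these last kinases off by removing phosphate from both the threonine and the tyrosine of their activation loop. Sprouty and SPRED proteins act further up, at the step between growth factor receptors, RAS and RAF. Several of these genes are themselves switched on by MAPK signalling, which makes them a negative feedback. In tubular epithelium MAPK signalling is known for its part in injury responses, and TGF-β1 can engage it beside the SMAD proteins.

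The total counts were between 42102861 and 53677241 in the AdCtrl samples and between 41537353 and 85684748 in the AdSirt4 samples, with the lowest in AdSirt4 replicate 1. The limit that a count of 0 allows (3 counts) lay at 0.035 to 0.0722 CPM (counts scaled to a common library size), for counting error only. SIRT4 had a mean of 0.930 CPM (SD 0.309) in the 3 control samples and of 76.0 CPM (SD 21.9) in the 3 others. The log2 fold change was 6.36 (SE 0.357), with an adjusted p of 0.00801 from edgeR's quasi-likelihood test, which rose above 0.05 without any 1 of the AdCtrl replicates. Tubular epithelial markers were present at 1 CPM or more for 8 of 9 genes, with a summed level of 1690.7 to 1751.5 CPM in AdCtrl and 1632.4 to 2221.4 CPM in AdSirt4 samples. CDH1, the epithelial cadherin, was near absent at 0.505 to 0.869 CPM, and of 6 genes of the differentiated proximal tubule 1 reached 1 CPM. Fibroblast markers reached 1 CPM for 2 of 6 genes (summed level 41.7 to 45.2 CPM in AdCtrl and 39.9 to 40.8 CPM in AdSirt4, COL3A1 at 0), leukocyte markers for 1 of 5 (2.80 to 3.06 and 2.17 to 2.95 CPM, CD3E at 0) and endothelial markers for 0 of 5 (0.425 to 0.588 and 0.411 to 0.742 CPM). The part of these cell types in the results was not tested. In bulk RNA, fewer expressing cells and less RNA per cell cannot be told apart.

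Gene length here is the length implied by the deposited counts and values per length, not the span on the chromosome. AdSirt4 replicate 1 stood apart from the other AdSirt4 replicates along gene length. Against their mean, its median log2 CPM stood 0.68 higher over the shortest 10% of genes, which reach 1.32 kb, and at -0.74 over the longest 10%, which begin at 8.79 kb. Each member is therefore also given without this library and with each library's length trend removed. SPRED2 (5.09 kb) and SPRY4 (6.04 kb) lay far below the others in this library, by -0.85 and -0.97 on the log2 scale, where genes of similar length (the same 10% of genes by length) had medians of -0.16 and -0.29. The length implied for SPRY4 ran from 5.74 to 8.56 kb across samples, so its length and its level per length are less certain. DUSP4 lay 0.28 above, where its length had a median of -0.44. It had 18, 35 and 29 counts in AdSirt4 replicates 1, 2 and 3, too few to place it closely. DUSP10 lay at -0.17 beside 0.20, DUSP6 at 0.25 beside -0.034, and SPRY2 at -0.015 beside 0.20. DUSP14 (1.70 kb) lay 0.43 above, beside a median of 0.50 for its length, DUSP5 (2.84 kb) 0.14 above, beside 0.20, DUSP1 0.46 above, beside 0.32, and DUSP8 at -0.14 beside -0.29. In this library some of the 10 genes thus lay near the median of genes of their length. Others, DUSP4 (on few counts), SPRED2 and SPRY4 the farthest, did not.

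The promoters of the genes were read for 6 short motifs, to show what the genes share apart from their expression. RefSeq promoters on GRCh38.p14, from 250 bases before to 50 bases after a transcription start, were read for 8 of the 10 genes in 12 windows. The only windows of DUSP8, DUSP14 and SPRY4 lay inside the gene ranges given below, downstream of the annotated gene start. DUSP5 had no entry, and no window of DUSP4 is reported here. The core of the cAMP response element (CRE), TGACG on either strand, stood in 6 windows of 6 genes, where 24.55% of all 35116 promoters hold it. The following stretches of 30 bases show it, 5′ to 3′ on the strand of the gene, with TGACG or its reverse complement CGTCA in capitals. They cover all matches in these windows, and DUSP6, DUSP14 and the remaining starts of DUSP10, SPRY2 and SPRED2 held none.
DUSP1, chr5:172771350-172771379, minus strand: ctccgaggctgaTGACGtctccccctctgg
DUSP1, chr5:172771296-172771325, minus strand: gcgggTGACGTCAccgcccCGTCAcgtgat
DUSP8, chr11:1572371-1572400, minus strand: ccgggctccgcTGACGTCAcctgcccccga
DUSP8, chr11:1572327-1572356, minus strand: ttggctgcaggTGACGTCAggggctttttt
SPRY2, chr13:80341299-80341328, minus strand: ctcggatccacaTGACGccatttactgctg
SPRY4, chr5:142324298-142324327, minus strand: tcttcggagccgTGACGgactgaattccct
SPRED2, chr2:65432552-65432581, minus strand: ccgctgggaagaCGTCAtcgcttccgccct
DUSP10, second start, chr1:221736887-221736916, minus strand: actgcgaggcctCGTCAttttcgagttggt

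In the DUSP1 promoter the core began 172 bases before the start, and a cluster of 3 matches began at 125 bases. The DUSP8 promoter held the full palindrome TGACGTCA at 118 and again at 74 bases before the start used here, which lies inside the gene. A palindrome stood in 1.848% of all promoters, and 2 or more in 21 promoters, or 0.0598%. At least 4 matches of the core, as in DUSP1 and DUSP8, were found in 0.3132% of promoters. Both counts were chosen after the sequences had been seen. The GC box GGGCGG stood in 9 windows of 7 genes, where 44.95% of all promoters hold it. The AP-1 motif TGANTCA was found in 1 gene (SPRED2, second start; 7.709% of all promoters) and the ETS motif CCGGAA in 1 gene (SPRY2; 17.25%). The SMAD motif CAGACA (16.88% of all promoters) and the CArG box (1.293%) were found in 0 windows. A match says only that these letters are in the window.

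The inducible nuclear phosphatases DUSP5 and DUSP1 were higher in AdSirt4 cells, and the same held for the ERK phosphatase DUSP6 and the JNK and p38 phosphatases DUSP8 and DUSP10. In these 5 genes the lowest AdSirt4 sample exceeded the highest AdCtrl sample, with log2 fold changes from 0.34 to 0.73. In DUSP4, DUSP14, SPRY2, SPRY4 and SPRED2 the groups overlapped. Of all 17720 genes tested, 9.66% showed this order and 9.77% its reverse (0 of the 10 genes). Since the set was chosen for a difference in this comparison, nothing is read from these shares. The median log2 fold change was 0.23 over the 10 genes and 0.02 over all genes tested, and without AdSirt4 replicate 1 it was 0.23 and -0.0028.

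DUSP5, an inducible phosphatase of the nucleus that is selective for ERK, lies on chromosome 10 from 110497907 to 110511533 (GRCh38.p14; Entrez gene 1847). It was at 38.7, 34.8 and 40.3 CPM in AdCtrl replicates 1, 2 and 3 and at 67.3, 62.0 and 59.7 CPM in AdSirt4 replicates 1, 2 and 3. The gap between the groups was thus wider than the range within either of them. The mean ± SD (n = 3) was 37.9 ± 2.81 CPM in AdCtrl and 63.0 ± 3.89 CPM in AdSirt4 samples. In the fit this was a log2 difference of 0.73 (SE 0.1), or 1.66-fold. It was 0.68 (SE 0.066), or 1.6-fold, without AdSirt4 replicate 1, 0.70 with the length trend removed, and between 0.66 and 0.78 under all alternatives. By replicate number the log2 difference was 0.80, 0.83 and 0.57. Of the 10 genes, DUSP5 had the largest log2 fold change, which is how the set came about. The annotation holds 2 DUSP5 pseudogenes, for which no counts are given under their names. Reads of DUSP5 may be shared with them, and its values are uncertain to that extent.

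DUSP1, an early response phosphatase that acts on p38, JNK and ERK, lies on chromosome 5 from 172768096 to 172771195 (Entrez gene 1843). It was at 75.5, 70.4 and 79.7 CPM in AdCtrl replicates 1, 2 and 3 and at 138.6, 115.0 and 88.2 CPM in AdSirt4 replicates 1, 2 and 3. The AdSirt4 samples were spread far more widely than the AdCtrl samples, with replicate 3 closest to the controls. The mean ± SD (n = 3) was 75.2 ± 4.62 CPM in AdCtrl and 113.9 ± 25.2 CPM in AdSirt4 samples. Its log2 fold change was 0.60 (SE 0.168), or 1.51-fold, and 0.43 (SE 0.11) without AdSirt4 replicate 1. By replicate number it was 0.88, 0.71 and 0.15, so the samples numbered 3 differed little.

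DUSP4, another inducible phosphatase of the nucleus, was barely expressed. It had 26, 16 and 28 counts in AdCtrl replicates 1, 2 and 3 and 18, 35 and 29 counts in AdSirt4 replicates 1, 2 and 3, or means of 0.468 ± 0.085 and 0.408 ± 0.0526 CPM (SD, n = 3). With these few counts the log2 fold change was -0.21 (SE 0.281), and at this depth a difference smaller than its error was not detectable.

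DUSP6, the ERK phosphatase of the cytoplasm, lies on chromosome 12 from 89347235 to 89352501 (Entrez gene 1848). It was at 52.7, 54.1 and 65.3 CPM in AdCtrl replicates 1, 2 and 3 and at 86.3, 76.6 and 68.8 CPM in AdSirt4 replicates 1, 2 and 3. The third samples of the groups nearly met, and the first samples were the farthest apart. The mean ± SD (n = 3) was 57.4 ± 6.93 CPM in AdCtrl and 77.2 ± 8.75 CPM in AdSirt4 samples. On the log2 scale the fold change was 0.43 (SE 0.129), 0.34 (SE 0.0907) without AdSirt4 replicate 1 and 0.45 with the length trend removed. By replicate number it was 0.71, 0.50 and 0.075.

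DUSP8 and DUSP10 are phosphatases that prefer JNK and p38. DUSP8 lies on chromosome 11 from 1554051 to 1572848 (Entrez gene 1850) and was at 13.3, 16.3 and 14.5 CPM in AdCtrl replicates 1, 2 and 3 and at 18.8, 20.9 and 20.5 CPM in AdSirt4 replicates 1, 2 and 3. The lowest AdSirt4 value was 18.8 CPM and the highest control 16.3 CPM. The fitted log2 fold change was 0.45 (SE 0.113), from 14.7 ± 1.52 to 20.0 ± 1.13 CPM (SD, n = 3), and 0.49 without AdSirt4 replicate 1. The annotation holds 3 DUSP8 pseudogenes, also without counts under their names, and reads may be shared with them. DUSP10 lies on chromosome 1 from 221701424 to 221742089 (Entrez gene 11221) and was at 15.6, 17.0 and 16.7 CPM in AdCtrl replicates 1, 2 and 3 and at 19.1, 18.7 and 24.6 CPM in AdSirt4 replicates 1, 2 and 3. AdSirt4 replicate 3 was the highest of its 6 samples. The log2 fold change was 0.34 (SE 0.133), from 16.5 ± 0.742 to 20.8 ± 3.33 CPM (SD, n = 3). Leaving out single samples gave values from 0.20 to 0.42.

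DUSP14, a small atypical phosphatase, lies on chromosome 17 from 37488566 to 37513498 (Entrez gene 11072). It was at 23.7, 21.0 and 22.1 CPM in AdCtrl replicates 1, 2 and 3 and at 29.2, 22.8 and 20.6 CPM in AdSirt4 replicates 1, 2 and 3. Only AdSirt4 replicate 1 stood above the controls. Its log2 fold change was 0.12 (SE 0.147), -0.045 (SE 0.0796) without that library and 0.017 (SE 0.0751) with the length trend removed.

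SPRY2, a Sprouty protein that dampens receptor signalling to RAS, lies on chromosome 13 from 80335976 to 80341126 (Entrez gene 10253). It was at 29.4, 30.1 and 35.8 CPM in AdCtrl replicates 1, 2 and 3 and at 32.8, 33.7 and 32.6 CPM in AdSirt4 replicates 1, 2 and 3. All AdSirt4 values lay within the range of the controls, and the log2 fold change was 0.058 (SE 0.108). SPRY4, a second Sprouty, lies on chromosome 5 from 142310430 to 142325021 (Entrez gene 81848) and was at 10.8, 11.7 and 12.4 CPM in AdCtrl replicates 1, 2 and 3 and at 6.42, 10.8 and 14.7 CPM in AdSirt4 replicates 1, 2 and 3. Its AdSirt4 samples lay on both sides of the controls. On the log2 scale the fold change was -0.12 (SE 0.274) with all samples and 0.12 (SE 0.123) without AdSirt4 replicate 1. With the length trend removed it was -0.080 (SE 0.2).

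SPRED2, which recruits neurofibromin to RAS at the membrane, lies on chromosome 2 from 65307175 to 65432599 (Entrez gene 200734). It was at 61.9, 57.9 and 63.7 CPM in AdCtrl replicates 1, 2 and 3 and at 35.4, 62.5 and 65.6 CPM in AdSirt4 replicates 1, 2 and 3. AdSirt4 replicate 1 lay far below the other 5 samples, which lay between 57.9 and 65.6 CPM. The fitted log2 fold change was -0.16 (SE 0.224) and 0.062 (SE 0.0558) without that library. With the length trend removed it was -0.13 (SE 0.168). DUSP14, SPRY4 and SPRED2 were the 3 of the 10 genes whose sign turned without AdSirt4 replicate 1.

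**Figure D1:**
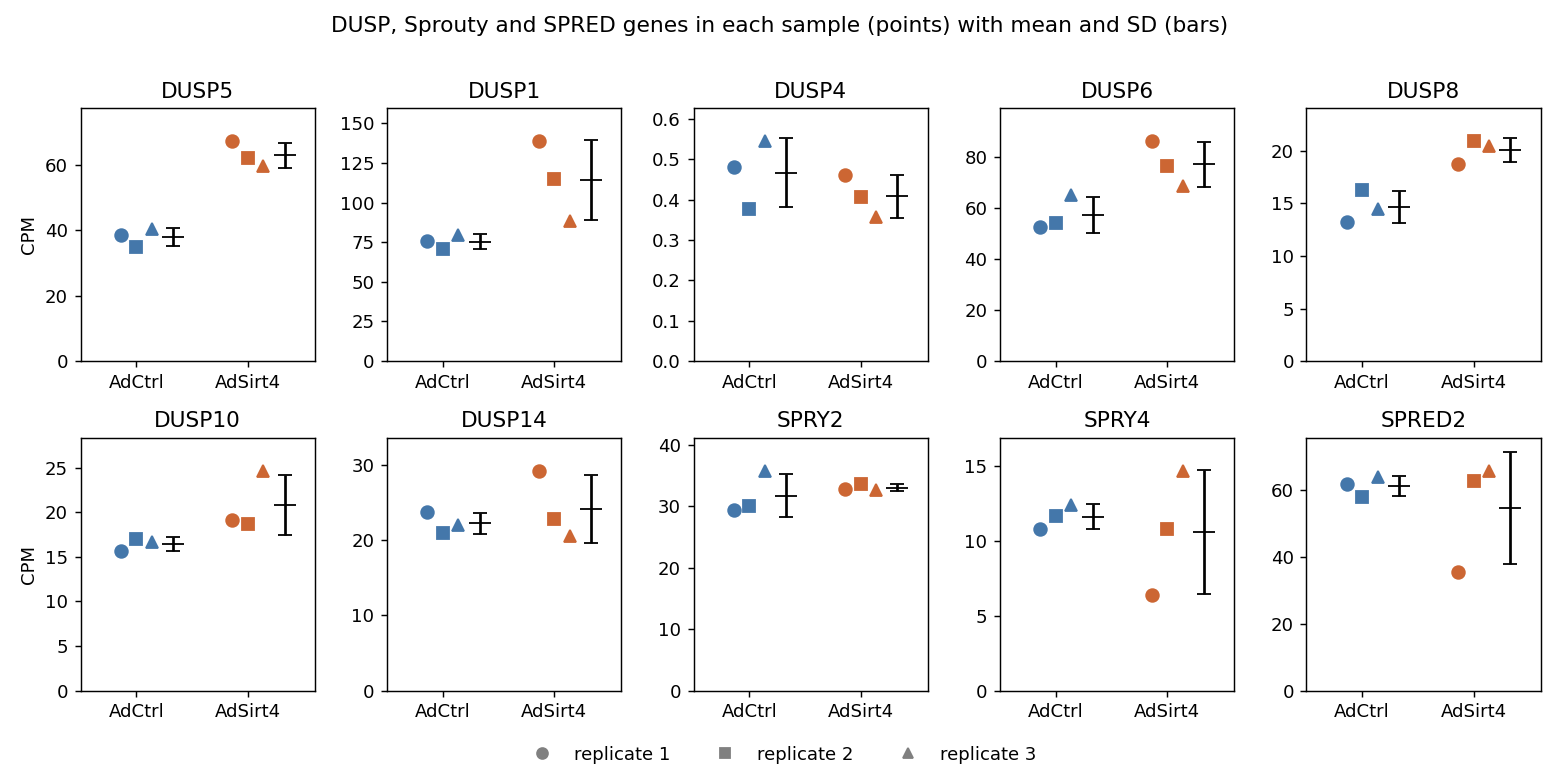
CPM of each gene in each sample, with the axis of each panel starting at 0; symbols give the replicate number, colours the group, and black bars the mean and SD (n = 3). DUSP5, DUSP1, DUSP6, DUSP8 and DUSP10 have all AdSirt4 points above all AdCtrl points, and in SPRED2 the first AdSirt4 point lies far below the rest.

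**Figure D2:**
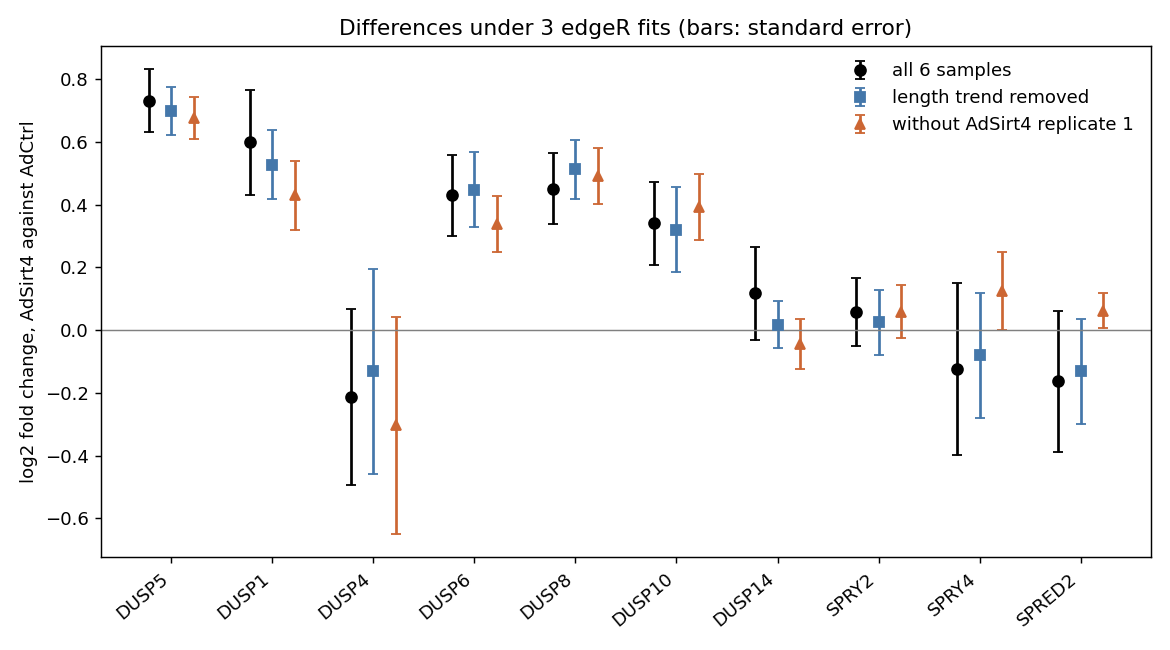
Log2 fold change of AdSirt4 against AdCtrl with its standard error from 3 edgeR fits, with all 6 samples, with the length trend removed and without AdSirt4 replicate 1. DUSP5 is highest in each fit (0.73, 0.70 and 0.68), and DUSP14, SPRY4 and SPRED2 change sign in the last.

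Among the 10 genes 0 were called by edgeR's quasi-likelihood test at an adjusted p under 0.05, at which 2 of 17720 genes or 0.0113% were called, and 5 had an unadjusted p under 0.05, where 7.93% of all genes did. The 5 were all higher in AdSirt4 cells, as were 4.43% of all genes. DESeq2 called 2 of them, DUSP5 and DUSP8, with 1.2% of all genes called and 0.711% called higher. Without AdSirt4 replicate 1 edgeR also called DUSP5 and DUSP8, with 6.71% of all genes called and 3.37% called higher, and with the length trend removed it called DUSP5 alone, with 0.0677% called. The replicate number as a block called 0 of them, with 0.00564% of all genes called. DUSP5 chose the set in this contrast, so nothing is read from these calls.

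Levels of different genes were compared per length, on the FPKM scale. In AdCtrl cells DUSP1 was the most abundant at 33.0 ± 3.09 FPKM (SD, n = 3). DUSP6 (14.0 ± 2.16), DUSP5 (13.5 ± 1.42), DUSP14 (13.2 ± 1.02), SPRED2 (12.1 ± 1.06) and SPRY2 (11.96 ± 1.77 FPKM) followed, with each one overlapping the next. DUSP10 (5.64 ± 0.225), DUSP8 (2.60 ± 0.191), SPRY4 (1.96 ± 0.216) and DUSP4 (0.0695 ± 0.0139 FPKM) were each below the one before with no overlap. In AdSirt4 cells DUSP1 stood at 48.5 ± 8.58, DUSP5 at 21.9 ± 0.336 and DUSP6 at 18.4 ± 1.25 FPKM (SD, n = 3), with no overlap between neighbours. DUSP5 thus overlapped DUSP6 and DUSP14 in AdCtrl cells and lay above both in AdSirt4 cells. DUSP14, SPRY2, SPRED2 and DUSP10 (14.0, 12.01, 10.7 and 7.02 FPKM) overlapped each with the next, and DUSP8, SPRY4 and DUSP4 were again lowest, at 3.49, 1.66 and 0.0582 FPKM.

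**Figure D3:**
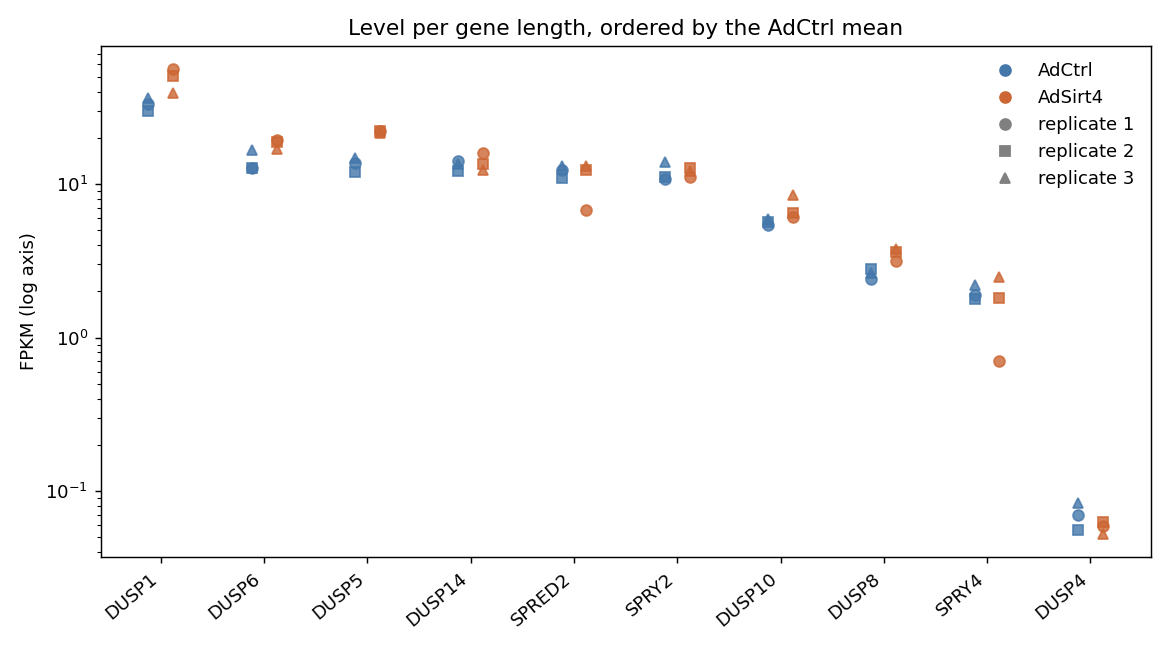
FPKM of each gene in each sample on a log axis, ordered by the AdCtrl mean; symbols give the replicate number and colours the group. DUSP1 is highest and DUSP4 lowest in both groups, and the AdSirt4 points of DUSP5 (21.5 to 22.1 FPKM) lie above those of DUSP6 (17.0 to 19.4 FPKM).

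The other genes of these families and pathways were taken from 5 lists of names with 123 genes, of which 115 were tested, and edgeR called 0 of them at an adjusted p under 0.05 over all genes tested. DESeq2 called 3 of the 115, where it called 1.2% of all genes. An unadjusted p under 0.05 in edgeR was reached by 17, where 7.93% of all genes reached it. The lists were chosen with earlier results of these data known, so nothing is read from these shares or from those below. The median log2 fold change over all genes tested was 0.02, and the share of all genes above 0 was not counted. In the list of other DUSP phosphatases 15 genes were tested, with the family members STYX and STYXL1 among them. Of these 15 genes, 10 had a log2 fold change above 0. The median of the 15 was 0.11, and 0 of them had an unadjusted p under 0.05. DUSP3, a phosphatase of ERK and JNK, was at 85.8 ± 2.16 CPM in AdCtrl and 99.5 ± 8.64 CPM in AdSirt4 cells (SD, n = 3), with no overlap and an adjusted p of 0.658 from edgeR. Without AdSirt4 replicate 1, edgeR gave DUSP3 a log2 fold change of 0.28 (adjusted p = 0.0116). DUSP16, a JNK phosphatase, had all AdSirt4 samples below the controls, at 61.4 ± 4.67 and 49.9 ± 10.1 CPM (SD, n = 3), with a log2 fold change of -0.30 and an adjusted p of 0.702 from edgeR. Its log2 fold change was -0.15 (SE 0.0663) without AdSirt4 replicate 1. The early response phosphatase DUSP2 (log2 fold change 0.14, SE 0.154) and the cytoplasmic ERK phosphatase DUSP7 (-0.20, SE 0.14) overlapped between the groups.

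Of 18 other brakes on RAS and ERK, 6 had a log2 fold change above 0, with a median of -0.054. Where 7.93% of all genes had an unadjusted p under 0.05, 2 of the 18 did. These were PTPRR (log2 fold change 0.99, adjusted p = 0.494 from edgeR) and LRIG1 (-0.40, adjusted p = 0.593 from edgeR), named after their values had been seen. Without AdSirt4 replicate 1 their log2 fold changes were 0.92 and -0.27. PTPRR was low, at means of 0.62 CPM in AdCtrl and 1.2 CPM in AdSirt4 samples. The remaining family members SPRY1, SPRY3, SPRED1 and SPRED3 had log2 fold changes of 0.12, -0.080, -0.023 and -0.27, with SEs of 0.0978 to 0.25. IL17RD, an inhibitor of FGF signalling, had -0.086 (SE 0.203). ERRFI1, a feedback inhibitor of the EGF receptor, was at 99.9, 96.8 and 104.7 CPM in AdCtrl and 108.1, 114.5 and 116.8 CPM in AdSirt4 replicates 1, 2 and 3. Its groups did not overlap, with a log2 fold change of 0.17 (adjusted p = 0.686 from edgeR), or 0.20 without AdSirt4 replicate 1 (adjusted p = 0.0485 from edgeR).

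The kinases themselves were read next. Of 29 genes of the ERK cascade 10 had a log2 fold change above 0, with a median of -0.034, and 0 had an unadjusted p under 0.05. ERK1 (MAPK3) was at 27.3 ± 0.356 CPM in AdCtrl and 26.7 ± 3.92 CPM in AdSirt4 samples (SD, n = 3), with a log2 fold change of -0.034 (SE 0.123). MEK1 (MAP2K1), the kinase that activates ERK, had all AdSirt4 samples above the controls, at 62.9 ± 1.61 and 73.5 ± 9.48 CPM (SD, n = 3), with a log2 fold change of 0.22 and an adjusted p of 0.680 from edgeR. Without AdSirt4 replicate 1 the log2 fold change of MEK1 was 0.11 (SE 0.0532). Of 27 genes of the JNK and p38 cascade 10 had a log2 fold change above 0, with a median of -0.021. Where 7.93% of all genes had an unadjusted p under 0.05, 3 of the 27 did. These were MAP3K8 (log2 fold change 0.42), a kinase upstream of MEK and JNK, MAPKAPK2 (0.29) and MAPKAPK3 (-0.31), both kinases downstream of p38, named here after their values had been seen. Without AdSirt4 replicate 1 these genes had 0.35, 0.19 and -0.23. With all samples JNK1 (MAPK8) had 0.069 (SE 0.0941) and p38α (MAPK14) -0.015 (SE 0.0824).

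Of 26 ERK target genes 18 had a log2 fold change above 0, with a median of 0.10. An unadjusted p under 0.05 was reached by 9 higher and 3 lower genes. Of all genes 7.93% reached it, and 4.43% did so on the higher side. This list was chosen with earlier results of these data known, so nothing is read from these shares. Of the genes picked by name, ETV4, ETV5, PHLDA1 and EPHA2 had log2 fold changes of -0.089, -0.21, 0.11 and 0.078 with SEs of 0.104 to 0.149. Among the 12 genes with an unadjusted p under 0.05, named after their values had been seen, were the early response transcription factors FOSL1 (0.54), EGR1 (0.34), EGR2 (0.59), EGR3 (1.25) and SRF (0.23). The early response gene IER3 (0.46) and the urokinase receptor PLAUR (0.39) were also higher, and the ephrin receptor EPHA4 (-0.68) was lower. The adjusted p of these 8 genes from edgeR was between 0.494 and 0.612. Without AdSirt4 replicate 1 the log2 fold changes of FOSL1, EGR1, EGR2, EGR3 and SRF were 0.63, 0.37, 0.68, 1.55 and 0.26. Those of IER3, PLAUR and EPHA4 were 0.22, 0.28 and -0.51. CCND1, the cyclin of the G1 phase, was at 26.6, 29.1 and 26.3 CPM in AdCtrl and 32.9, 43.0 and 51.2 CPM in AdSirt4 replicates 1, 2 and 3. Its groups did not overlap, with a log2 fold change of 0.63 (SE 0.166, adjusted p = 0.494 from edgeR) and 0.78 without AdSirt4 replicate 1 (adjusted p = 0.000719 from edgeR). For CCND1, DUSP3 and ERRFI1 the adjusted p without that library was the lowest of the alternatives, which reached 0.97.

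The EGF receptor ligands HBEGF, AREG and EREG on this list were called by DESeq2 and are named after their values had been seen. HBEGF was at 14.8, 14.6 and 16.5 CPM in AdCtrl and 30.3, 26.0 and 24.4 CPM in AdSirt4 replicates 1, 2 and 3, with a log2 fold change of 0.81 (SE 0.118, adjusted p = 0.255 from edgeR). AREG was at 26.6, 23.8 and 28.7 CPM in AdCtrl and 18.4, 10.7 and 14.3 CPM in AdSirt4 replicates 1, 2 and 3, with a log2 fold change of -0.87 (SE 0.2, adjusted p = 0.494 from edgeR). EREG was at 93.2, 76.4 and 113.9 CPM in AdCtrl and 33.1, 35.2 and 52.0 CPM in AdSirt4 replicates 1, 2 and 3, with a log2 fold change of -1.24 (SE 0.219, adjusted p = 0.379 from edgeR). In each of the 3 the groups did not overlap, with HBEGF on the higher side and AREG and EREG on the lower. Their adjusted p from DESeq2 was 3e-06, 0.0143 and 8.8e-05. Without AdSirt4 replicate 1 the log2 fold changes of HBEGF, AREG and EREG from edgeR were 0.71, -1.08 and -1.12.

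**Figure D4:**
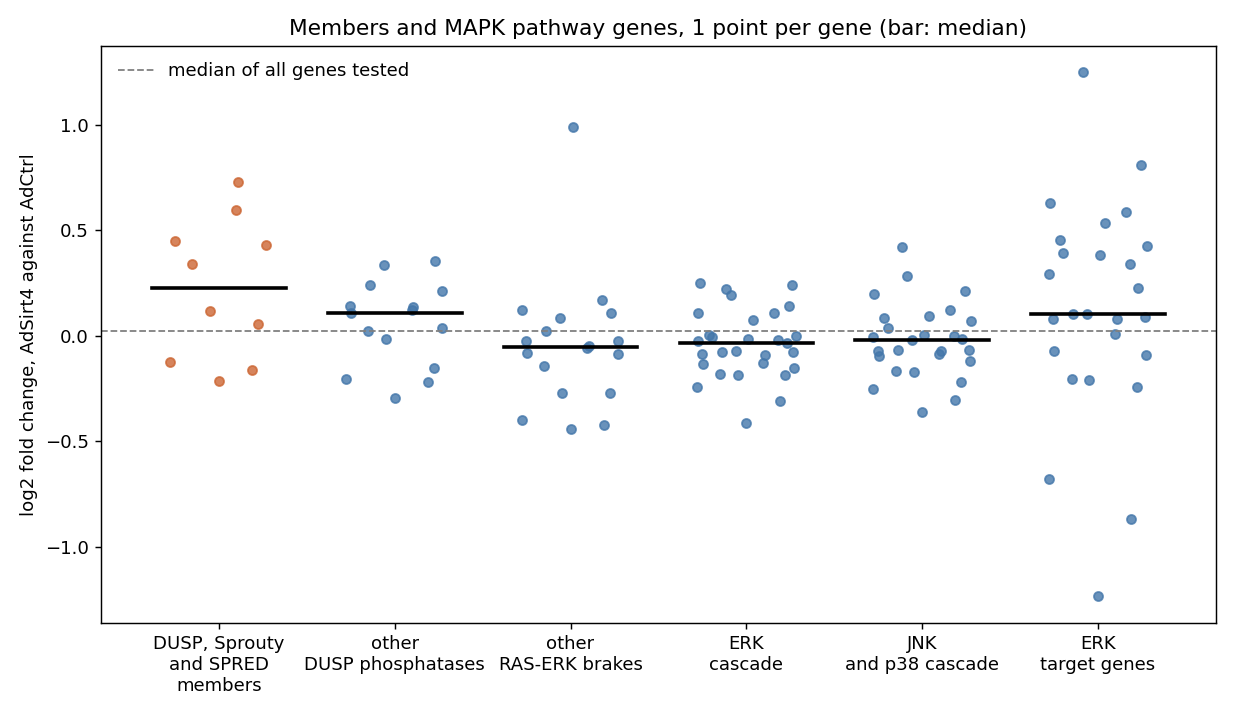
Log2 fold change of AdSirt4 against AdCtrl for the 10 genes and for the tested genes of the 5 lists, 1 point per gene; black bars are medians and the dashed line is the median of all genes tested (0.02). The medians of the lists lie between -0.054 (other RAS-ERK brakes) and 0.11 (other DUSP phosphatases). The points of the ERK target genes spread the most, from -1.24 (EREG) to 1.25 (EGR3, a low gene whose groups overlap).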

How the data were processed

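RNA of 6 HK2 samples (AdCtrl and AdSirt4, 3 each, all with TGF-β1) was sequenced after poly-A selection. The authors deposited raw counts of reads per gene and, for the same genes, a table that names no unit. The deposited values of that table were read as FPKM, because the gene length they imply was constant within 5% for 11758 of 15894 genes. The submitters' processing notes name fastp 0.21.0, HISAT2 2.1.0, StringTie 2.1.5, DESeq2 1.30.1 and build hg38, with no counting settings, so sense and antisense reads may not be separated.

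Counts were filtered with filterByExpr (minimum count 10), scaled with TMM and compared with the robust quasi-likelihood test of edgeR 4.0.16 in R 4.3.3, with Benjamini-Hochberg adjustment over 17720 genes at 0.05. Alternatives were DESeq2 1.42.0, RLE scaling, other count filters, limma 3.58.1 on log2(FPKM + 1) and log2(FPKM + 0.1), a replicate block, removal of the length trend by lowess (span 0.3) and each sample left out. The procedure was tested on simulated data. Tables and figures used Python 3.11.15, numpy 2.4.6, pandas 2.3.3 and matplotlib 3.10.9. With 3 samples against 3, an exact permutation test cannot go below 0.1 and was not used.

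The 10 genes and the 5 lists were chosen with earlier results of these data known. The genes to be named were the 10, SIRT4 and 19 pathway genes picked by name, plus any list gene past an adjusted p of 0.05. Other list genes were named after their values had been seen. They had an unadjusted p under 0.05 or were called in an alternative fit. Another gene picked by name is not reported here. DUSP13A and DUSP13B were not found under these symbols. Deviations from the group means correlated across genes at 0.159 to 0.178 between samples with the same replicate number. Between others the correlation was -0.188 to 0.0298. Deviations were taken from each group's own mean, so these correlations depend on each other. A pairing by number comes from the data, not from the labels. The main fit did not use it, and only the fits with a replicate block did. Differences by replicate number are given as a description.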

Additional observations from a re-analysis of the deposited data

How the results depend on the processing

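The number of genes called by edgeR was 2. It was 212 with DESeq2, 5 with all genes of at least 1 count, 4 with at least 10 counts in every sample, 12 once the length trend was removed, 6 when a replicate block was added to that, 1 with limma on log2(FPKM + 1), 5 with limma on log2(FPKM + 0.1) and 5 when limma was kept to mean FPKM values of 1 or more. With the replicate block alone, which pairs the samples by replicate number, it was 1. With 1 sample left out it ran from 0 to 1227, the highest without AdSirt4 replicate 1. Of the lists, 0 genes were called in each, against 0 to 2 for the other DUSP phosphatases (DUSP3 higher, DUSP22 lower), 0 to 2 for the other RAS-ERK brakes (ERRFI1 higher, LRIG1 lower), 0 to 1 for the JNK and p38 cascade (MAPKAPK3 lower) and 0 to 11 for the ERK target genes with 1 sample left out, the higher value in each case without AdSirt4 replicate 1. For the ERK target genes DESeq2 called 3 (HBEGF, AREG and EREG), the length fit 1 (HBEGF) and the length fit with the block 2 (AREG and EREG). The causes were not tested. SIRT4 had log2 fold changes of 6.10, 6.50 and 6.52 in the fits without 1 AdCtrl replicate.

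Of the values of the 10 genes under the alternatives, 157 moved by less than the spread between replicates and 2 by more. Both were DUSP8 at 0.32 with limma on log2(FPKM + 1), and with log2(FPKM + 0.1) DUSP8 was at 0.41. The spread included AdSirt4 replicate 1, and the sign turns of DUSP14, SPRY4 and SPRED2 without that library counted as smaller than it. Among the other named genes, small differences turned sign. With the length trend removed, and with the block added, the log2 fold change was 0.011 and 0.016 for SPRY3, 0.10 and 0.090 for SPRED1, 0.042 and 0.045 for IL17RD, and 0.027 and 0.027 for MAPK14. With 1 sample left out it ran from -0.0025 to 0.23 for SPRY1, -0.25 to 0.12 for SPRY3, -0.084 to 0.021 for SPRED1, -0.26 to 0.040 for IL17RD, -0.16 to 0.055 for MAPK3, -0.031 to 0.0024 for MAPK14 and -0.22 to 0.024 for ETV4. Depth limits DUSP4 most, at 16 to 35 counts per sample.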
